A study of Homo sapiens with 12 samples.

Results

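K/VP.5, a subline of the leukemia line K562 that resists the drug etoposide, was compared with its parent across all genes, using the 4 K/VP.5 and the 4 K562 libraries, or 8 of the 12 RNA sequencing libraries of the series. The libraries were taken by their column names, V1 to V4 and K1 to K4, and no measured value entered the choice. K562 is an established human leukemia line, derived from a blast crisis of chronic myeloid leukemia with the BCR-ABL fusion. K/VP.5 was cloned from K562, so its 4 libraries describe 1 clone, and differences that arose by selection and those that were already present in the founding cell cannot be told apart. Both lines carry an unedited TOP2A gene, whereas the remaining 4 libraries come from edit-3, made from K/VP.5 by Cas9 editing, with an oligonucleotide as repair template, of the donor splice site of TOP2A intron 19. Per the labels the cells grew in DMEM with 10% serum, and etoposide at 0.5 µM was added every other week, in a sentence that names all 3 lines at once. Whether the K562 parent also received the drug is therefore not settled by the labels, and the free-text description calls every library parental, against the source names used here. Whether a line's 4 libraries stem from separate cultures is not stated, and where they do not, the p-values reflect technical spread among libraries alone.

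K562 cells stand close to the shared precursor of red cells and platelets, express embryonic and fetal globins, and are driven by the BCR-ABL kinase, which feeds the RAS, PI3K and STAT5 pathways. Etoposide traps topoisomerase II on cut DNA and is pumped out of cells by some members of the ABC transporter family. Cell identity in this lineage is held by a small set of transcription factors, among them GATA1, LMO2 and LDB1, while genes of other lineages are kept silent by chromatin, a task in which the large KRAB zinc finger family and DNA methylation take part.

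Library totals ran from 25311993 to 37065946 reads over the 8 libraries. Levels are in CPM, the usual count of reads relative to the size of the library, scaled here for library composition, and a value after ± is the SD over the 4 libraries of a line. A gene was called changed, and is said below to have risen or fallen in K/VP.5, where the adjusted p was under 0.05. The 16 genes listed as typical of K562 were all tested, and their summed level was 4768 to 6060.0 CPM in the K562 libraries and 3967 to 4690.0 CPM in the K/VP.5 libraries. The 3 listed genes of 9p21, a region that K562 lacks, summed to at most 0.0328 CPM in a K562 library and 0.0364 CPM in a K/VP.5 library. In K562, replicates 2 and 4 both stood at least 1.3-fold above replicates 1 and 3 for 8.66% of the genes tested, for 20.3% of the genes at least 2-fold lower in K/VP.5 and for 18.5% of those at least 2-fold higher. The same pattern held for 2.78% of all genes within K/VP.5, and its part in the differences between lines was not tested.

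Of 58395 listed genes, 18286 had enough reads to be tested, and 6688 changed, or 36.6%. K/VP.5 was higher for 3349 of them (18.3%) and lower for 3339 (18.3%), and the median log2 fold change over all genes tested was 0.0026. At least 2-fold differences were less even, with 1500 genes higher (8.2%) and 957 lower (5.23%), or 13.4% in either direction. The ranges of the 4 and 4 libraries did not overlap for 6835 genes (37.4%). Among the 12911 protein-coding genes tested, 2672 rose (20.7%) and 2760 fell (21.4%), and the counts of gene lists below should be read against these shares. The order was turned among abundant coding genes: of the 4937 with at least 50 CPM in the higher line, 82 rose and 137 fell at least 2-fold.

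**Figure D1:**
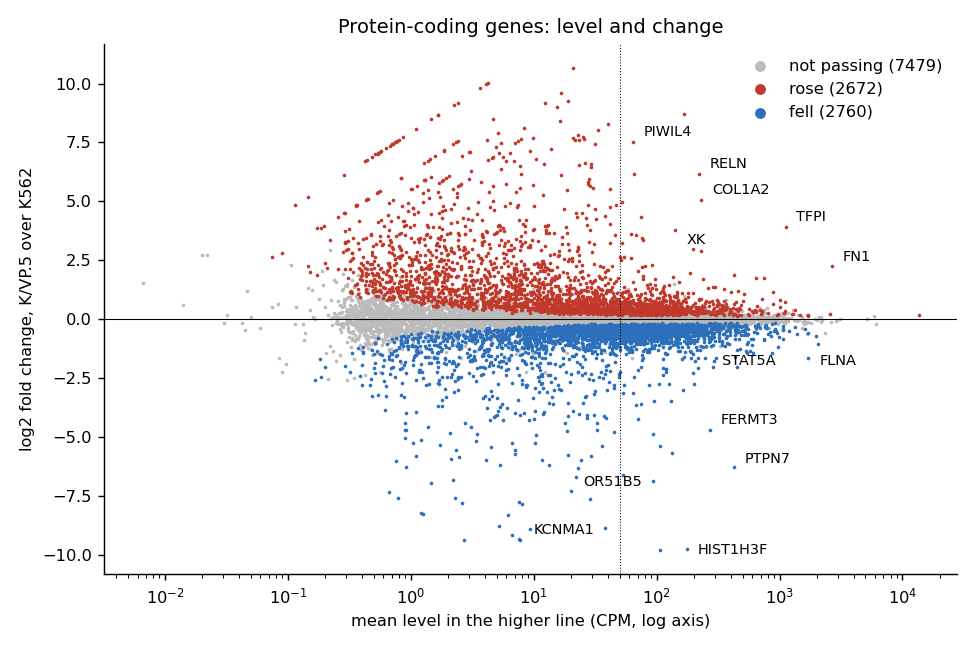
Mean level of the higher line (CPM, log axis) against the log2 fold change of K/VP.5 over K562 for the 12911 protein-coding genes tested, with genes that rose in red, genes that fell in blue and the rest in grey. Large rises crowd the left, at low levels, while genes over 50 CPM with folds of at least 2 lie more often below 0, as 137 against 82 genes.

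Among the 15 abundant coding genes with the largest rises were secreted matrix proteins, red cell surface proteins described further on and a germ line gene. RELN, the gene of reelin, a large secreted glycoprotein that positions neurons (ENSG00000189056, GRCh38 chromosome 7, 103471784 to 103989516, minus strand), stood at 2.86, 3.11, 3.24 and 2.90 CPM in the K562 libraries against 219, 208, 238 and 212 in those of K/VP.5. The K/VP.5 libraries were all far above the K562 libraries (log2 fold change 6.17 with SE 0.089 and adjusted p = 3.2e-15). PIWIL4, a germ line protein that binds small RNAs, was at 0.354, 0.459, 0.171 and 0.402 CPM in the K562 libraries against 63.9, 66.5, 62.5 and 65.3 in those of K/VP.5, again with no overlap (log2 fold change 7.53 with SE 0.16 and adjusted p = 2.1e-13). The Ras regulator DAB2IP rose from 1.69 ± 0.45 to 52.8 ± 5.0 CPM, TFPI, an inhibitor of blood clotting, from 73.9 ± 21.2 to 1118 ± 136 CPM, and the receptor phosphatase PTPRF from 24.9 ± 6.1 to 199 ± 3.7 CPM. Their log2 fold changes were 4.96, 3.92 and 3.0 (adjusted p between 3.6e-11 and 1.4e-09). GOLM1, a Golgi membrane protein, had the smallest standard error of these genes (log2 fold change 3.35 with SE 0.073 and adjusted p = 2.5e-13). LIN28A, which blocks let-7 microRNA maturation, was the largest rise in this class (log2 fold change 8.72) and stood at 0.434 ± 0.12 CPM in edit-3.

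PTPN7 and FERMT3, both expressed in blood cells, were among the 15 abundant coding genes with the largest falls. PTPN7, a tyrosine phosphatase of blood cells (ENSG00000143851, chromosome 1, 202147013 to 202161588, minus strand), stood at 277, 501, 294 and 637 CPM in the K562 libraries against 2.75, 6.69, 3.06 and 9.75 in those of K/VP.5. The lines did not overlap, and in both the replicates 2 and 4 were the highest (log2 fold change -6.25 with SE 0.64 and adjusted p = 2.2e-05). FERMT3, or kindlin-3, which activates integrins in blood cells, was at 228, 271, 243 and 347 CPM in the K562 libraries against 7.48, 11.3, 8.37 and 15.3 in those of K/VP.5, also without overlap (log2 fold change -4.68 with SE 0.27 and adjusted p = 6.1e-08). ARHGAP4 and ARHGAP6, which switch off small GTPases, and PHACTR2, which binds actin, had log2 fold changes of -6.61, -4.87 and -5.37, with adjusted p between 1.3e-11 and 1.4e-08. MAGT1, a magnesium carrier tied to protein glycosylation, went from 69.9 ± 3.9 to 3.71 ± 0.47 CPM, and CARD9, an adaptor of innate immune signalling, from 68.5 ± 5.0 to 5.48 ± 1.0 CPM. PSD4, which activates the small GTPase ARF6, went from 131.7 ± 7.0 to 12 ± 1.2 CPM (log2 fold changes -4.24, -3.64 and -3.46).

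A pair of neighbouring histone genes showed the deepest falls of abundant coding genes. HIST1H3F, a histone H3 gene, was at 174, 174, 197 and 159 CPM in the K562 libraries against 0.312, 0.319, 0.182 and 0.0267 in those of K/VP.5, and HIST1H2BH, a histone H2B gene, at 111, 95.6, 122 and 96.9 CPM in the K562 libraries against 0.0567, 0.0354, 0.182 and 0.187 in those of K/VP.5. Both were near 0 in every K/VP.5 library, although histone genes have near-identical copies that can share reads, so these values are uncertain. The pair lies head to head, and its promoter windows, from 250 bases before to 50 bases after each start site (RefSeq, GRCh38.p14), are shown because both genes moved together, with each CG in capitals.
HIST1H3F, chr6:26250586-26250885, minus strand: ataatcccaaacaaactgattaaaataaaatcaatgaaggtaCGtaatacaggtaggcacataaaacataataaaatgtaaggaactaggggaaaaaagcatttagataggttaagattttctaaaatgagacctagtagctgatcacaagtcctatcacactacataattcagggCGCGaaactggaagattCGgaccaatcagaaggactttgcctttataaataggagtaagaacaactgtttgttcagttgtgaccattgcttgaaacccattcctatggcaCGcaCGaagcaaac
HIST1H2BH, chr6:26251364-26251663, plus strand: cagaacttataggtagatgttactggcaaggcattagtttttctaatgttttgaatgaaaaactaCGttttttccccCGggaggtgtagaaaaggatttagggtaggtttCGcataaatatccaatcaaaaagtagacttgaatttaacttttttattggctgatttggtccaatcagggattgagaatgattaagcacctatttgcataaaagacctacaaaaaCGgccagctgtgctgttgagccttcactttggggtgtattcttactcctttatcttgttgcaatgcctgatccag
These windows hold 6 and 4 CG pairs, against a median of 26 over the 10394 coding genes tested that matched a promoter entry, 80.5% of them. CG reads the same on both strands, and at least 1 was present in 99.6% of those windows. Histone genes as a family moved both ways: of 51 replication-dependent histone genes tested of 71 listed, 13 rose, 16 fell and 22 did not pass. HIST1H4D fell from 119.8 ± 14.9 to 43.6 ± 5.2 CPM, and the 20 tested genes nearest to HIST1H3F on its chromosome had a median log2 fold change of 0.03.

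Regulators of the erythroid program fell more often than they rose. All 20 listed erythroid transcription factors and regulators were tested, and 2 rose, 11 fell and 7 did not pass (4 rose and 12 fell with replicate numbers as a block), with a median log2 fold change of -0.42. Both genes that rose did so at least 2-fold, against 1 of the 11 that fell, and the mean log2 fold change was 0.18. The 2 that rose are not named here. The share that fell was 55%, against 21.4% of coding genes. NFE2, a globin gene activator, stood at 307, 359, 348 and 419 CPM in the K562 libraries against 159, 151.9, 162.8 and 186 in those of K/VP.5, without overlap (log2 fold change -1.12 with SE 0.099 and adjusted p = 4.7e-07). LYL1 went from 214 ± 18.1 to 114 ± 7.9 CPM, LDB1, the bridging protein of the GATA1 complex, from 267 ± 15.1 to 151.5 ± 6.9 CPM, and GATA1 itself from 277 ± 33.8 to 196 ± 13 CPM (log2 fold changes -0.90, -0.82 and -0.51). LMO2, which joins that complex, fell by 0.39 (adjusted p = 0.002). TAL1, its DNA-binding partner, did not pass (log2 fold change 0.28, adjusted p = 0.17), but rose when replicate numbers were kept as a block (0.30, adjusted p = 5.2e-04). In bulk RNA, fewer cells of a kind and less RNA per cell cannot be told apart.

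Red cell membrane genes rose more often than they fell. Of 32 tested of 37 listed, 12 rose, 4 fell and 16 did not pass, with a median of 0.21. XK, which carries the Kx blood group antigen, was at 10.9, 11.2, 10.8 and 7.69 CPM in the K562 libraries against 141, 147, 146 and 134 in those of K/VP.5, with every K/VP.5 library above every K562 library (log2 fold change 3.81 with SE 0.13 and adjusted p = 1.7e-11). GYPB, which carries the S and s blood group antigens, was at 1.87, 1.41, 1.67 and 1.21 CPM in the K562 libraries against 34.6, 43.7, 46.1 and 42.2 in those of K/VP.5, without overlap (log2 fold change 4.75 with SE 0.16 and adjusted p = 1.5e-11). GYPE rose by 4.33, but genes of this family are so alike that reads may be shared. The basal cell adhesion molecule BCAM, carrier of the Lutheran antigens, rose by 3.50, and the water channel AQP1 by 3.31 from 0.624 ± 0.090 CPM. SLC4A1, the band 3 anion exchanger and the most abundant protein of the red cell membrane, went against them and stood at 24, 32.1, 21.1 and 29.3 CPM in the K562 libraries against 1.81, 3.51, 2.26 and 3.54 in those of K/VP.5 (log2 fold change -3.26 with SE 0.22 and adjusted p = 3.7e-08). Globin and heme genes were balanced, as 5 rose, 5 fell and 21 of the 31 tested did not pass, against 6 and 9 with the block, and the heme enzymes BLVRA and UROS fell, with log2 fold changes of -1.16 and -1.03.

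Genes of stem cells and platelets moved both ways. Of 13 stem and progenitor genes tested of 28 listed, 6 rose and 4 fell. RUNX1, a master factor of blood formation, was at 40.3, 50.7, 38.9 and 54.5 CPM in the K562 libraries against 12.8, 14.4, 13.7 and 12.4 in those of K/VP.5, with no overlap (log2 fold change -1.79 with SE 0.13 and adjusted p = 5.5e-08), and in edit-3 it stood at 144 ± 23.1 CPM. The stem cell factor receptor KIT fell by 2.07 from 4.01 ± 1.0 CPM, whereas MEIS1, a homeobox factor of stem cells, rose from 0.370 ± 0.24 to 5.28 ± 0.34 CPM. Of 18 megakaryocyte and platelet genes tested of 32 listed, 7 rose and 6 fell. CD36, a fatty acid and matrix receptor of platelets, was at 0.318, 0.328, 0.239 and 0.322 CPM in the K562 libraries against 9.98, 11.4, 12.7 and 13.4 in those of K/VP.5 (log2 fold change 5.28 with SE 0.24 and adjusted p = 2.9e-10), and P2RY1, the ADP receptor of platelets, at 71.7, 74.4, 80.6 and 71.2 CPM in the K562 libraries against 6.26, 5.49, 6.22 and 6.37 in those of K/VP.5 (log2 fold change -3.61 with SE 0.12 and adjusted p = 9.1e-12). Neither gene's ranges overlapped, and they moved in opposite directions. CD9, a tetraspanin of platelets, rose from 0.0854 ± 0.076 to 10.4 ± 0.83 CPM.

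Lymphoid and endothelial genes fell more often than they rose. Of 13 granulocyte and monocyte genes tested of 30 listed, 2 rose and 3 fell, shares near those of coding genes, against 4 and 5 with replicate numbers as a block. Of 9 mast cell, basophil and eosinophil genes of 22 listed, 2 rose and 4 fell, and of 14 lymphoid genes of 30 listed, 1 rose and 5 fell. The myeloid factor SPI1, or PU.1, was at 7.57, 17.7, 10.6 and 23.1 CPM in the K562 libraries against 1.36, 2.83, 1.38 and 1.89 in those of K/VP.5, without overlap and with K562 replicates 2 and 4 the highest (log2 fold change -2.98 with SE 0.46 and adjusted p = 2.7e-04). CD3D, a subunit of the T cell receptor complex, went from 50.03 ± 18.6 to 10.7 ± 3.5 CPM, and LCP2, an adaptor of blood cell signalling, from 2.09 ± 0.74 to 0.0769 ± 0.062 CPM. ENPP3, the basophil marker CD203c, went from 4.52 ± 1.0 to 0.0967 ± 0.060 CPM (log2 fold changes -2.22, -4.80 and -5.43). Of 12 endothelial genes tested of 24 listed, none rose at the threshold and 5 fell, led by PECAM1, the adhesion molecule CD31. PECAM1 stood at 25.9, 34.5, 26.2 and 43.8 CPM in the K562 libraries against 1.22, 1.74, 1.67 and 1.60 in those of K/VP.5 (log2 fold change -4.39 with SE 0.22 and adjusted p = 1.2e-09), with K/VP.5 far below K562 in every library. CEBPA, a myeloid factor, rose from 0.318 ± 0.13 to 1.77 ± 0.57 CPM.

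In the matrix, neural, epithelial and germ line lists more genes rose than fell. Of 19 mesenchymal and matrix genes tested of 40 listed, 7 rose and 12 did not pass, while 9 rose and 2 fell with replicate numbers as a block. The summed level of the list was 972 to 1435 CPM in K562 against 2936 to 3924 CPM in K/VP.5. FN1, the matrix protein fibronectin, made up most of it in K/VP.5. This gene was at 499.9, 513, 577 and 635 CPM in the K562 libraries against 2298, 2475, 2716 and 3099 in those of K/VP.5, without overlap (log2 fold change 2.25 with SE 0.28 and adjusted p = 6.8e-05). The collagen gene COL1A2 was at 5.69, 8.65, 5.16 and 7.77 CPM in the K562 libraries against 194, 267, 217 and 241 in those of K/VP.5 (log2 fold change 5.07 with SE 0.22 and adjusted p = 2.8e-09), and at 2491 ± 558 CPM in edit-3. Other collagen genes rose from lower levels, COL1A1 to 18.8 ± 2.8, COL6A1 to 12.8 ± 2.1, COL6A2 to 7.97 ± 2.1 and the basement membrane gene COL15A1 to 65.6 ± 7.2 CPM. SPARC, which binds collagen, rose from 5.12 ± 1.2 to 62.5 ± 6.8 CPM (log2 fold change 3.61 with SE 0.15 and adjusted p = 1.3e-10) but was at 0.629 ± 0.080 CPM in edit-3.

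Of 12 neural and neural crest genes tested of 36 listed, 5 rose and 7 did not pass, and of 18 epithelial genes tested of 35 listed, 6 rose and 12 did not pass, while 6 rose and 2 fell with the block. HAND2, a factor of heart and limb buds, and TFAP2B, an AP-2 factor of neural crest, reached 16.8 ± 0.65 and 20.9 ± 4.0 CPM in K/VP.5. HAND2 had 2 reads in K562, a ratio of 949.6 (263 to 7846), and TFAP2B had 1 read, a ratio of 2338 (419 to 92402), with exact 95% intervals that cover counting error only. The cell adhesion genes CDH1, or E-cadherin, and DSP, or desmoplakin, rose from 0.311 ± 0.091 and 0.399 ± 0.13 CPM to 2.45 ± 0.95 and 2.92 ± 0.59 CPM. DSG2, a desmosomal cadherin, was already at 35.4 ± 2.8 CPM in K562 and rose by 0.65. Of 12 pluripotency and germ line genes tested of 35 listed, 6 rose and 6 did not pass, among them TEX15, a meiosis gene, at 17.8 ± 1.9 and 26.9 ± 2.5 CPM. Cancer-testis antigens fell more often than they rose, with 17 of the 31 tested lower and 5 higher, and 14 of the 17 had nearest genes whose median log2 fold change was -0.3 or less. Nearest genes may themselves be on the list, so the 14 are not independent of each other.

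**Figure D2:**
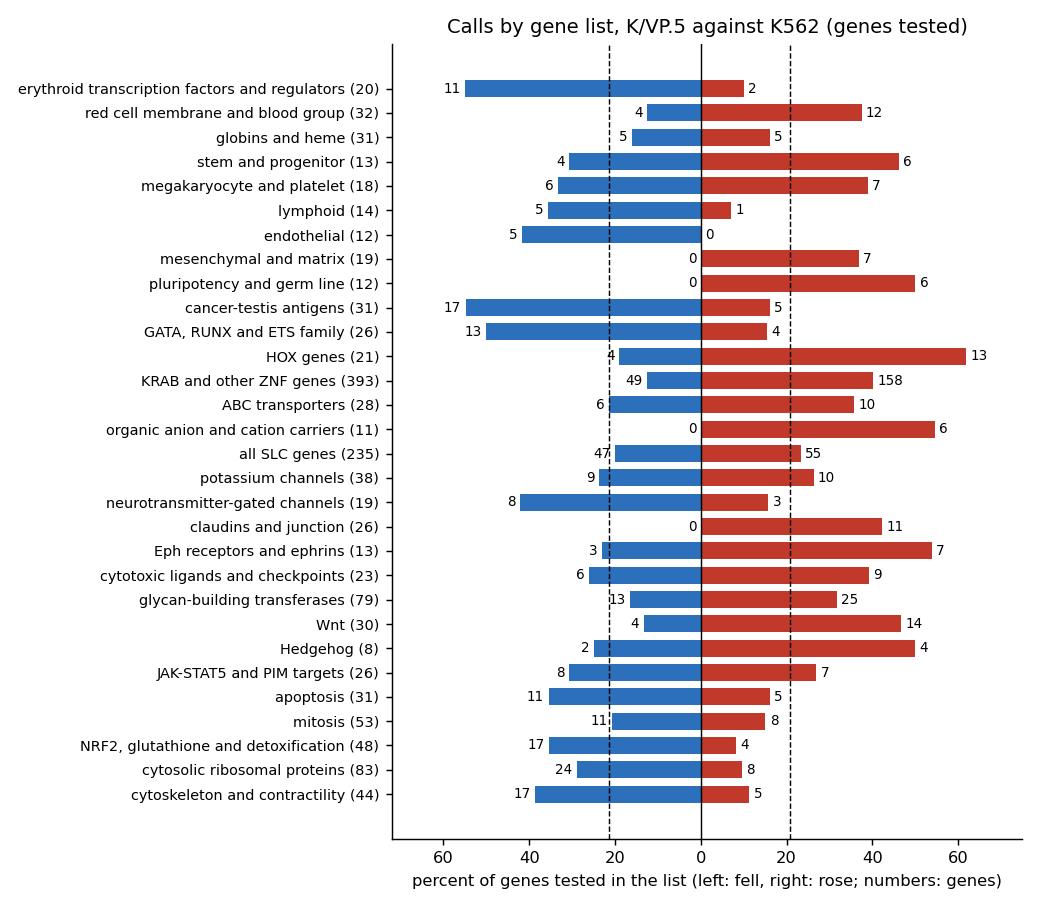
Genes that rose (red, right) and fell (blue, left) in K/VP.5 as a percent of the genes tested in 30 of the 99 lists, with their numbers at the bars and the shares over all 12911 coding genes (20.7% and 21.4%) as dashed lines. Erythroid regulators, cancer-testis antigens and the GATA, RUNX and ETS family extend furthest to the left (55%, 54.8% and 50%), and HOX genes, organic ion carriers and Eph receptors with their ephrins to the right (61.9%, 54.5% and 53.8%).

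Developmental transcription factors split by family. Of 26 GATA, RUNX and ETS genes tested of 30 listed, 4 rose and 13 fell. RUNX2, a bone and lymphoid factor, was at 4.38, 9.86, 5.09 and 17.1 CPM in the K562 libraries against 0.368, 0.673, 0.473 and 0.400 in those of K/VP.5, without overlap (log2 fold change -4.26 with SE 0.58 and adjusted p = 9.1e-05). ETS1 went from 1.10 ± 0.45 CPM to 2 reads over the 4 K/VP.5 libraries, a ratio of 69.4 (18.8 to 579.6) between lines. The 4 that rose include GATA4 and GATA6, factors of heart and endoderm, which stood at 1.67 ± 0.38 and 7.91 ± 0.87 CPM in K/VP.5 against 0.0356 ± 0.0033 and 0.684 ± 0.24 CPM in K562. Of 21 HOX genes tested of 39 listed, 13 rose and 4 fell (2 with upper quartile scaling), with a median of 1.03. HOXC10 was at 0.778, 0.917, 1.26 and 1.29 CPM in the K562 libraries against 14.3, 12.8, 13.9 and 12.4 in those of K/VP.5 (log2 fold change 3.65 with SE 0.20 and adjusted p = 2.9e-09), and HOXC12, HOXD8 and HOXD9 reached 3.83 ± 0.56, 1.80 ± 0.21 and 2.76 ± 0.46 CPM. HOX genes lie in clusters, and for 7 of the 13 that rose the nearest genes had a median of at least 0.3. Of 27 forkhead genes tested of 45 listed, 8 rose and 4 fell, with FOXD3, a neural crest and stem cell factor, at 0.389, 0.328, 0.273 and 0.322 CPM in the K562 libraries against 5.13, 4.78, 6.18 and 4.42 in those of K/VP.5 (log2 fold change 3.95 with SE 0.17 and adjusted p = 2.5e-10) and no overlap. FOXO1, a target of AKT signalling, rose from 6.37 ± 0.97 to 13.8 ± 1.1 CPM, and FOXL2, an ovary factor, fell from 33.9 ± 5.2 to 16.4 ± 1.0 CPM.

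Zinc finger genes rose more often than they fell. KRAB zinc finger proteins bind DNA, often at mobile elements, and recruit silencing complexes. Of 393 zinc finger genes tested of 510 listed, 158 rose, 49 fell and 186 did not pass, with a median log2 fold change of 0.18. The share that rose was 40.2%, against 20.7% of coding genes. At least 2-fold, 69 rose and 9 fell. On chromosome 19, 94 of 177 rose and 17 fell, while on other chromosomes 64 of 216 rose and 32 fell. The other 846 coding genes tested on chromosome 19 were even, with 127 higher and 139 lower. Outside the cluster described next, ZNF551, ZNF254 and ZNF558 had the largest rises of zinc finger genes with more than 3 reads in K562. ZNF551 was at 0.177, 0.131, 0.0683 and 0.0805 CPM in the K562 libraries against 24.9, 27.6, 25.5 and 23.7 in those of K/VP.5 (log2 fold change 7.74 with SE 0.17 and adjusted p = 2.8e-13), ZNF254 reached 25.7 ± 1.8 CPM from 0.123 ± 0.028 CPM, and ZNF558 reached 21.8 ± 1.8 CPM from 0.107 ± 0.059 CPM. No K562 library of these 3 genes reached 1 CPM and no K/VP.5 library was under 10 CPM. Members of this family are alike in sequence and sit in clusters, so reads may be shared between them.

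Neighbouring zinc finger genes on 19q13.12 rose together. The block runs from ZFP14 to ZNF607 (GRCh38, chromosome 19, 36334453 to 37719790) and was chosen after its values were seen. Of the 23 genes tested, 21 rose, 16 of them at least 2-fold, and 2 fell, ZNF529 and its antisense partner ZNF529-AS1, with a median of 3.13, or 2.73 with genes at 0 reads in K562 set to their lower bound. ZNF529-AS1, ZNF571-AS1 and AC092295.2 are antisense genes. With no strand setting stated, their reads may be shared with the genes they overlap, so these calls are uncertain. ZFP82 was at 0.0707, 0.0655, 0.0341 and 0 CPM in the K562 libraries against 9.07, 10.5, 10.3 and 9.49 in those of K/VP.5 (log2 fold change 7.67 with SE 0.26 and adjusted p = 1.4e-11). No K562 library reached the lowest K/VP.5 library. ZNF850 had 2 reads over the 4 K562 libraries and was at 12, 11.1, 12.8 and 13.8 CPM in the K/VP.5 libraries, a ratio of 706 (195 to 5832). ZNF420 had 3 reads in K562 and was at 4.82, 4.57, 5.24 and 4.98 CPM in K/VP.5, a ratio of 185 (62.9 to 897). ZNF527 had 0 reads in K562 and was at 1.79, 2.27, 2.73 and 2.16 CPM in K/VP.5, at least 82.9-fold higher when K562 is set to 3 reads over its 4 libraries. The intergenic RNA gene LINC01534, inside the block, went without a read in K562 and was higher by at least 38.7-fold. ZNF260, also inside the block, was expressed in both lines, at 17.9 ± 1.2 CPM in K562 against 23 ± 1.4 CPM in K/VP.5. The promoter windows of 4 genes at or near 0 in K562 are shown because they moved together, with each CG in capitals (RefSeq, GRCh38.p14).
ZFP82, chr19:36418595-36418894, minus strand: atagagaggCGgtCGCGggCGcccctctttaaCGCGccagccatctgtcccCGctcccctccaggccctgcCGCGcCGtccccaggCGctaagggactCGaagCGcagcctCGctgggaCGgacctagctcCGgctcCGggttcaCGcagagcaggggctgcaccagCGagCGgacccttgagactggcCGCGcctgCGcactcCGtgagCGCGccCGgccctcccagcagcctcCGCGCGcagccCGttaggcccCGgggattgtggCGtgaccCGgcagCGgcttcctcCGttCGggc
ZNF850, chr19:36772758-36773057, minus strand: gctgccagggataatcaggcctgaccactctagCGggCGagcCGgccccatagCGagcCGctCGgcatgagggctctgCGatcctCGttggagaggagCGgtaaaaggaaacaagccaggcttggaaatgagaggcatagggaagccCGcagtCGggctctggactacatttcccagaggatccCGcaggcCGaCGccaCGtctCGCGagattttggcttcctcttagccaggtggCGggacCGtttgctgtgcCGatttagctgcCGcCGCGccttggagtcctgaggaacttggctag
ZNF420, chr19:37078183-37078482, plus strand: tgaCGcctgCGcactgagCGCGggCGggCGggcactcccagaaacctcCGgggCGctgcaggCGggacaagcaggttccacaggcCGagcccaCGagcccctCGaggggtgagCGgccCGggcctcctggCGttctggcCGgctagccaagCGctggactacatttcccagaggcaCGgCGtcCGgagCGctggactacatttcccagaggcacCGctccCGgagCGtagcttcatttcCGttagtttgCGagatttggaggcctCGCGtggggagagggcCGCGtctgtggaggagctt
ZNF527, chr19:37370849-37371148, plus strand: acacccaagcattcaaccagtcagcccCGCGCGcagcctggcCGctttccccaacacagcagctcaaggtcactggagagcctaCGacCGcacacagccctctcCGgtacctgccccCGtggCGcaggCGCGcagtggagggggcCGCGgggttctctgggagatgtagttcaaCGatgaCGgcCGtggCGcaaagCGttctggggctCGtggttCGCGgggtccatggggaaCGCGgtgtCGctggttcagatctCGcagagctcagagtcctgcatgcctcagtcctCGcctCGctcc
They hold 37, 23, 30 and 27 CG pairs. Over the 337 zinc finger genes with a promoter entry (85.8% of those tested) the median was 22, and it was 21.5 over the 58 that rose at least 2-fold with an entry, against 26 over coding genes. The 4 windows thus hold at least as many CG pairs as the median zinc finger gene, and DNA methylation was not measured here.

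**Figure D3:**
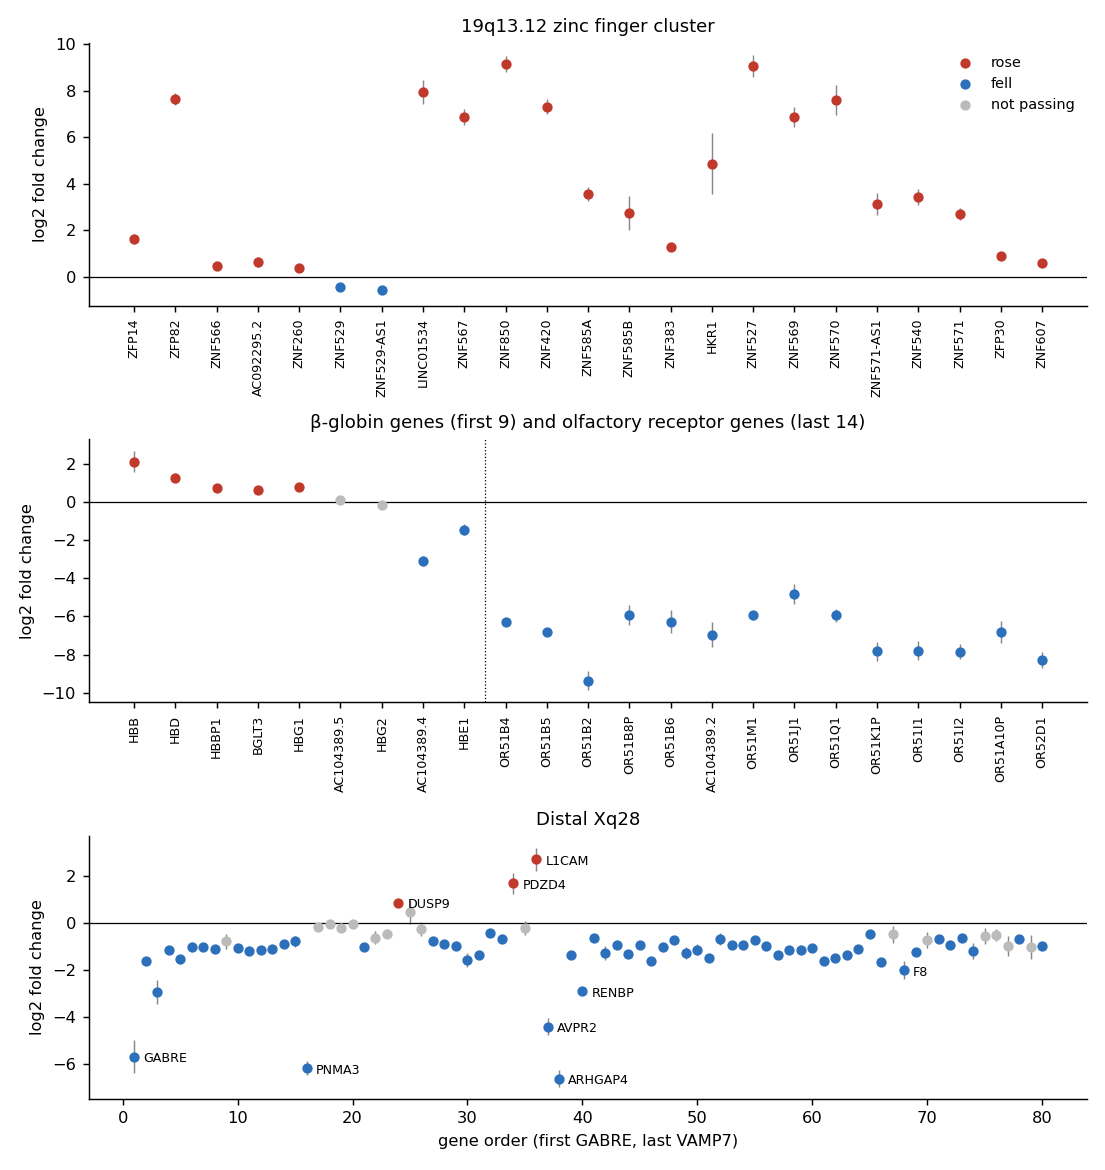
Log2 fold change of K/VP.5 over K562 (points, with bars of 1 SE) for the genes tested in 3 blocks, in gene order: the 19q13.12 zinc finger cluster (23 genes), the β-globin genes and the olfactory receptor block beside them (9 and 14 genes) and distal Xq28 (80 genes). The first block lies almost whole above 0, the olfactory receptor block lies far below 0, with a median of -6.83, and Xq28 has a median of -1.0.

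On chromosome 11, a block of 14 genes and pseudogenes beside the β-globin genes fell together. All are olfactory receptor genes or pseudogenes by name except AC104389.2, an unnamed processed pseudogene. The block (11, 5301014 to 5505652, OR51B4 to OR52D1) was chosen after its values were seen, and all 14 genes tested fell at least 2-fold, with a median of -6.83, or -6.57 with genes at 0 reads in K/VP.5 set to their lower bound of 3 reads. OR51B5, the most abundant, was at 94.4, 90.4, 94.3 and 97.1 CPM in the K562 libraries against 0.539, 0.956, 0.873 and 0.933 in those of K/VP.5, without overlap (log2 fold change -6.84 with SE 0.14 and adjusted p = 2.1e-13). OR51B4 was at 23 ± 4.4 and 0.289 ± 0.044 CPM (log2 fold change -6.30), and OR51B2 had 0 reads in K/VP.5 against 2.72 ± 0.11 CPM in K562. In edit-3 OR51B5 stood at 34.2 ± 3.5 CPM, between the other lines. The globin genes next to the block, taken by start position from HBB to HBE1, moved both ways, as 5 of 9 genes tested there rose, 2 fell and 2 did not pass. As annotated these genes span 5225464 to 5678434. At least 1 of them thus runs across the olfactory block, which limits these counts. HBG1, a fetal γ-globin gene, was at 93.4, 97.5, 91.0 and 95 CPM in the K562 libraries against 153, 126, 141 and 233 in those of K/VP.5, with no overlap (log2 fold change 0.79 with SE 0.18 and adjusted p = 0.0037), while its copy HBG2 was at 72.9 ± 6.8 and 66.7 ± 6.7 CPM and did not pass (adjusted p = 0.49). These copies can share reads. HBE1, the embryonic ε-globin gene, was low in both lines, at 0.708 ± 0.21 and 0.252 ± 0.058 CPM, and fell by 1.45. The other gene that fell there, the unnamed coding gene AC104389.4, was at 2.26 ± 0.41 and 0.252 ± 0.11 CPM (log2 fold change -3.09).

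Most genes tested in distal Xq28 fell. Of 80 genes tested between GABRE and VAMP7 (X, 151953124 to 155943769, chosen after its values were seen), 61 fell, 39 of them at least 2-fold, 3 rose and 16 did not pass, with a median of -1.0. Antisense genes such as HCFC1-AS1 are among the 80, and their reads may be shared with the genes they overlap. FLNA, the actin crosslinker filamin A, was at 1448, 1683, 1504 and 2223 CPM in the K562 libraries against 472, 539, 546 and 665 in those of K/VP.5 (log2 fold change -1.63 with SE 0.15 and adjusted p = 1.3e-06), and every K/VP.5 library lay below every K562 library. The same held for RPL10, a ribosomal protein gene, at 946, 969, 979.6 and 1033 CPM in the K562 libraries against 560.0, 604, 569 and 611 in those of K/VP.5 (log2 fold change -0.74 with SE 0.056 and adjusted p = 8.0e-08). IRAK1, an innate signalling kinase, fell from 579 ± 78.6 to 229 ± 2.7 CPM, and F8, the gene of clotting factor VIII, from 24.6 ± 12.3 to 6.09 ± 2.6 CPM. The log2 fold changes of ARHGAP4 (-6.61), PNMA3 (-6.17) and RENBP, which interconverts amino sugars (-2.90), lay far below the median of the block. Against it, DUSP9, a MAP kinase phosphatase, rose from 25.7 ± 3.0 to 46.7 ± 5.2 CPM, and L1CAM and PDZD4 rose from levels under 1 CPM. DNA copy number was not measured here. Whole chromosomes also leaned in 1 direction, with a median log2 fold change of 0.49 on chromosome 13 (175 genes higher, 27 lower), -0.20 on chromosome 10 (88 higher, 250 lower) and -0.16 on X (82 higher, 210 lower). Of the 3339 genes that fell, 1172 (35.1%) had 20 nearest genes with a median of at most -0.3, and of the 3349 that rose, 678 (20.2%) had nearest genes with a median of at least 0.3.

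Transporter families moved in both directions. ABC transporters use ATP to move drugs, lipids and peptides across membranes. Of 28 tested of 49 listed, 10 rose, 6 fell and 12 did not pass. Beside the pump genes ABCC1 and ABCG2 (log2 fold changes 0.77 and 3.25), ABCA5, a lipid transporter, was at 0.247, 0.393, 0.478 and 0.402 CPM in the K562 libraries against 4.42, 5.06, 5.82 and 4.90 in those of K/VP.5, without overlap (log2 fold change 3.71 with SE 0.20 and adjusted p = 1.8e-09). ABCB1, which encodes the multidrug pump P-glycoprotein, had 0 reads in all 8 libraries. TAP1, the peptide transporter of antigen presentation, rose by 0.81 from 1.45 ± 0.42 CPM.

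Of 235 solute carrier genes tested of 377 listed, 55 rose (23.4%) and 47 fell (20%), near the coding background of 20.7% and 21.4%, against 69 and 72 with replicate numbers as a block. Of 11 organic anion and cation carriers tested of 36 listed, 6 rose, none fell and 5 did not pass, while 5 rose and 1 fell with the block. SLCO4C1, an organic anion carrier, was at 0.0354, 0.0328, 0.102 and 0.0805 CPM in the K562 libraries against 4.14, 5.60, 5.53 and 12.4 in those of K/VP.5, without overlap (log2 fold change 6.71 with SE 0.54 and adjusted p = 4.6e-07), and the carnitine carrier SLC22A5 rose from 16.6 ± 4.0 to 30.6 ± 3.3 CPM. Of 27 amino acid carriers tested of 39 listed, 8 rose and 3 fell. SLC3A2, the 4F2 heavy chain that carries several amino acid exchangers to the surface, was at 841, 866, 913 and 834 CPM in the K562 libraries against 308, 309.9, 422 and 231 in those of K/VP.5, and every K/VP.5 library lay below every K562 library (log2 fold change -1.44 with SE 0.18 and adjusted p = 4.4e-05). SLC38A1, a glutamine carrier, fell from 122 ± 3.0 to 66.2 ± 6.0 CPM and stood at 0.882 ± 0.61 CPM in edit-3. SLC7A8, a light chain of large neutral amino acid exchange, rose from 9.31 ± 1.4 to 28.8 ± 3.6 CPM. SLC1A3, a glutamate carrier, had 0 reads in K562 and was at 2.44, 1.63, 1.60 and 1.01 CPM in K/VP.5, at least 62.7-fold higher, and SLC7A2, a carrier of arginine and lysine, had 3 reads in K562 and was at 19.2, 18.8, 21.8 and 15.9 CPM in K/VP.5, a ratio of 705 (241 to 3422).

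Single genes stood out in other carrier families, which moved both ways. Of 30 metal carriers tested of 38 listed, 7 rose and 6 fell, against 9 and 12 with replicate numbers as a block. Of 22 sugar and monocarboxylate carriers tested of 32 listed, 6 rose and 3 fell, against 7 and 8 with the block. Of 14 nucleoside, folate and vitamin carriers tested of 20 listed, 2 rose and 1 fell, against 5 and 3 with it. SLC30A4, a zinc exporter, was at 0.849, 0.983, 0.922 and 0.483 CPM in the K562 libraries against 13.8, 13.2, 14.8 and 10.9 in those of K/VP.5, without overlap (log2 fold change 4.0 with SE 0.19 and adjusted p = 7.0e-10), and SLC29A4, a monoamine carrier, at 2.19, 2.69, 3.005 and 3.46 CPM in the K562 libraries against 11.6, 13.2, 11.6 and 14.9 in those of K/VP.5 (log2 fold change 2.18 with SE 0.16 and adjusted p = 6.7e-08). SLC37A1, a sugar phosphate exchanger, rose from 0.172 ± 0.16 to 7.19 ± 0.85 CPM (log2 fold change 5.38 with SE 0.37 and adjusted p = 4.6e-08). SLC25A5, the abundant ADP/ATP exchanger of mitochondria on X, fell from 464 ± 7.0 to 263.5 ± 13.3 CPM (log2 fold change -0.81 with SE 0.058 and adjusted p = 4.3e-08), with nearest genes at a median of -0.51. Among ion pumps, 11 of 44 rose and 10 fell. ATP2A3, a calcium pump of blood cells, was at 161, 295, 187 and 499 CPM in the K562 libraries against 49.5, 69.1, 62.9 and 99.2 in those of K/VP.5, with no overlap and with replicates 2 and 4 highest in both lines (log2 fold change -2.02 with SE 0.41 and adjusted p = 0.0025). ATP2B1, which exports calcium, fell from 91.6 ± 6.2 to 41.7 ± 4.3 CPM, and ATP1B2, a sodium pump subunit, rose from 21.6 ± 1.8 to 47.2 ± 3.2 CPM.

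**Figure D4:**
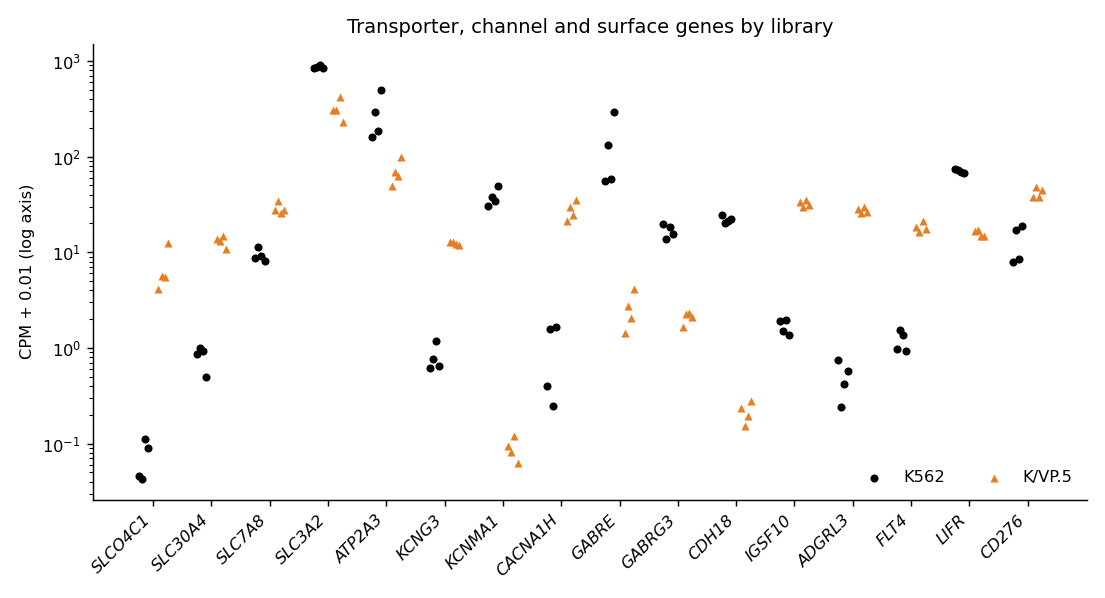
CPM (log axis, with 0.01 added) of 16 transporter, channel and surface genes in the 4 K562 libraries (black circles) and the 4 K/VP.5 libraries (orange triangles). The 16 genes were picked from those called changed, so the lack of overlap between lines in all of them reflects that choice. The gap was wide for KCNMA1 (30.5 to 49.8 against 0.0533 to 0.109 CPM) and narrow for ATP2A3 (K562 from 161 CPM up, K/VP.5 up to 99.2 CPM).

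Potassium channel genes moved both ways. Of 38 potassium channel genes tested of 95 listed, 10 rose and 9 fell. KCNMA1, the large-conductance channel opened by calcium, was at 30.5, 38.2, 34.2 and 49.8 CPM in the K562 libraries against 0.0850, 0.0708, 0.109 and 0.0533 in those of K/VP.5, and KCNG3, a modifier subunit of voltage-gated channels, at 0.601, 0.753, 1.16 and 0.644 CPM in the K562 libraries against 12.7, 12.8, 12.2 and 12 in those of K/VP.5. These changes were in opposite directions with no overlap in either (log2 fold changes -8.86 and 3.96, SE 0.30 and 0.20). KCNE3, an accessory subunit, fell by 3.90 from 5.08 ± 0.63 CPM. Of 27 calcium and sodium channel genes tested of 51 listed, 7 rose and 7 fell. CACNA1H, a T-type calcium channel, was at 0.389, 1.57, 0.239 and 1.65 CPM in the K562 libraries against 21.3, 29.5, 24.7 and 35.3 in those of K/VP.5, without overlap (log2 fold change 4.86 with SE 0.41 and adjusted p = 2.3e-06), and CACNA2D2, an auxiliary calcium channel subunit, rose from 0.987 ± 0.23 to 12.5 ± 1.6 CPM. ITPR1, the calcium release channel of the endoplasmic reticulum, fell from 83.1 ± 28 to 31.4 ± 5.0 CPM.

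Neurotransmitter-gated channel genes fell more often than they rose. Of 19 tested of 63 listed, 3 rose and 8 fell, and their summed level was 186 to 446 CPM in K562 against 67.9 to 74.8 CPM in K/VP.5. GABRE, a GABA receptor gene in Xq28, was at 55.2, 131.8, 58 and 289.9 CPM in the K562 libraries against 1.42, 2.76, 2.04 and 4.13 in those of K/VP.5, with K562 replicate 4 highest. Its log2 fold change was -5.68 (SE 0.71, adjusted p = 1.1e-04), and -4.97 without K562 replicate 4. GABRG3, on chromosome 15, was at 19.9, 13.7, 18.2 and 15.4 CPM in the K562 libraries against 1.64, 2.27, 2.29 and 2.11 in those of K/VP.5 (log2 fold change -3.02 with SE 0.15 and adjusted p = 7.4e-10), and GABRA3 in Xq28 went from 6.34 ± 0.37 to 2.05 ± 0.25 CPM. Of the 8 that fell, 6 had nearest genes with a median of at most -0.3. Of 68 TRP, chloride, purinergic and other channel genes tested of 123 listed, 17 rose and 13 fell, against 27 and 18 with replicate numbers as a block. At least 2-fold, 14 of these rose and 5 fell. GJC1, the gap junction protein connexin 45, rose from 1.73 ± 0.49 to 27.4 ± 1.4 CPM (log2 fold change 3.99 with SE 0.18 and adjusted p = 3.4e-10), and GJA1, or connexin 43, rose from 4 reads in K562 to 7.06 ± 0.32 CPM. ASIC1, an acid-sensing channel, rose from 2.53 ± 1.0 to 19.4 ± 0.51 CPM.

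Over a union of 1549 surface, transporter and channel genes, 853 were tested, 240 rose and 182 fell. Counted as on at 1 CPM or more in a line and as off under 0.1 CPM, 14 were on in K/VP.5 alone and 6 in K562 alone. The 14 were SLC7A2, UGT8, CD9, CHST3, GJA1, SLCO4C1, CLCN4, ADGRG6, SLC1A3, PCDHGA10, HLA-B, PCDHGB4, TNFRSF11A and ABCA13, and the 6 were KCNMA1, ADGRA3, GABRA2, IGSF11, B3GALT1 and GABRG1. Over all genes 129 were on in K/VP.5 alone, 95 of them coding and 20 zinc finger genes, and 48 in K562 alone, 30 coding and none a zinc finger gene. In edit-3, 85 of the 129 were at 1 CPM or more, 25 lay between and 19 were under 0.1 CPM, whereas of the 48 only 7 were at 1 CPM or more, 16 lay between and 25 were under 0.1 CPM.

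More junction genes rose than fell. Of 26 claudin and junction genes tested of 45 listed, 11 rose and 15 did not pass, while 12 rose and 1 fell with replicate numbers as a block. CLDN11, a tight junction claudin, was at 40.3 ± 3.3 CPM in K/VP.5 against 14 reads over the 4 K562 libraries. JAM3, a junction molecule that binds leukocyte integrins, was at 1.94, 2.26, 1.78 and 2.58 CPM in the K562 libraries against 11.8, 12.8, 10.4 and 12.1 in those of K/VP.5, without overlap (log2 fold change 2.46 with SE 0.13 and adjusted p = 1.6e-09). PVR, the poliovirus receptor and a ligand of natural killer cell receptors, was at 5.87, 5.83, 5.43 and 5.55 CPM in the K562 libraries against 12.8, 14, 10.9 and 14.9 in those of K/VP.5 (log2 fold change 1.21 with SE 0.12 and adjusted p = 1.0e-06). Of 22 cadherins tested of 44 listed, 9 rose and 4 fell. CDH18 was at 24.5, 20.4, 21.1 and 22.4 CPM in the K562 libraries against 0.227, 0.142, 0.182 and 0.267 in those of K/VP.5, a near loss (log2 fold change -6.70 with SE 0.19 and adjusted p = 2.4e-12), while CELSR1, a planar polarity cadherin, rose from 0.645 ± 0.11 to 8.43 ± 1.8 CPM. PCDH9, a protocadherin on chromosome 13, fell from 8.32 ± 0.96 to 0.530 ± 0.15 CPM, while its nearest genes had a median of 0.45.

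Of 20 immunoglobulin superfamily adhesion genes tested of 43 listed, 8 rose and 7 fell. IGSF10 was at 1.91, 1.47, 1.95 and 1.37 CPM in the K562 libraries against 33.5, 29.4, 35.2 and 30.9 in those of K/VP.5, without overlap (log2 fold change 4.26 with SE 0.16 and adjusted p = 4.7e-11), and at 0.339 ± 0.10 CPM in edit-3, and IGSF3 rose from 8.79 ± 1.5 to 54.4 ± 4.3 CPM. Of 21 integrins tested of 30 listed, 4 rose and 1 fell (4 and 2 with the block), the latter ITGB5, from 28 ± 16.7 to 4.84 ± 0.85 CPM (log2 fold change -2.53 with SE 0.38 and adjusted p = 3.0e-04). Of 22 tetraspanins tested of 31 listed, 6 rose and 7 fell, with CD53, a leukocyte tetraspanin, at 20.7, 26.5, 17.9 and 39.1 CPM in the K562 libraries against 1.67, 3.51, 1.75 and 3.62 in those of K/VP.5 (log2 fold change -3.30 with SE 0.38 and adjusted p = 2.5e-05). Its ranges were far apart, with K562 replicate 4 highest.

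A guidance ligand of axons and vessels and its receptor moved in opposite directions. SLIT2, a secreted repellent, was at 76.3, 59.8, 77.2 and 42.2 CPM in the K562 libraries against 8.42, 7.08, 8.55 and 5.44 in those of K/VP.5 (log2 fold change -3.12 with SE 0.19 and adjusted p = 1.5e-08), and its receptor ROBO1 at 0.141, 0.426, 0.444 and 0.402 CPM in the K562 libraries against 9.21, 11.2, 9.86 and 9.91 in those of K/VP.5 (log2 fold change 4.81 with SE 0.27 and adjusted p = 2.8e-09). Neither overlapped, the ligand falling and the receptor rising, and in edit-3 both were low, at 0.403 ± 0.047 and 0.677 ± 0.22 CPM. PLXNA1, a semaphorin receptor, fell from 436 ± 126 to 144 ± 22.2 CPM, and SEMA3F, a semaphorin, rose from 3.41 ± 1.3 to 20.5 ± 2.8 CPM. In this list of 50, 29 were tested, 9 rose and 9 fell. Of 13 Eph receptors and ephrins tested of 22 listed, 7 rose and 3 fell. The ligands EFNA1, EFNB1 and EFNB2 rose to 6.94 ± 1.1, 29.8 ± 3.5 and 6.88 ± 0.13 CPM from 1.55 ± 0.29, 10.2 ± 0.88 and 1.88 ± 0.60 CPM.

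Receptors for soluble ligands moved in both directions. Of 20 chemokine and lipid mediator receptors tested of 48 listed, 3 rose and 7 fell, with a median of -0.53. PTGER3, a prostaglandin E receptor, fell from 77.4 ± 12.4 to 30.8 ± 3.2 CPM, and F2RL3, a thrombin receptor of platelets, from 76.6 ± 10.3 to 22.8 ± 6.4 CPM (log2 fold changes -1.33 and -1.74). Of 14 adhesion G protein-coupled receptors tested of 29 listed, 6 rose and 4 fell, led by ADGRL3, or latrophilin 3, at 0.742, 0.229, 0.410 and 0.563 CPM in the K562 libraries against 28.2, 25.6, 29.8 and 26.4 in those of K/VP.5 (log2 fold change 5.83 with SE 0.26 and adjusted p = 2.8e-10). Its lines were far apart, and edit-3 stood at 0.178 ± 0.099 CPM. Of 25 receptor tyrosine kinases tested of 40 listed, 8 rose and 4 fell. FLT4, the lymphatic growth factor receptor VEGFR3, was at 0.955, 1.54, 1.37 and 0.926 CPM in the K562 libraries against 18.4, 16.2, 21.1 and 17.6 in those of K/VP.5 (log2 fold change 3.92 with SE 0.18 and adjusted p = 3.8e-10), and the insulin receptor INSR at 3.08, 4.68, 2.46 and 6.80 CPM in the K562 libraries against 19.8, 22.1, 20.6 and 31.7 in those of K/VP.5 (log2 fold change 2.48 with SE 0.29 and adjusted p = 2.9e-05). Both rose without overlap. Of 36 cytokine receptors tested of 62 listed, 8 rose and 9 fell. LIFR, which binds leukemia inhibitory factor, was at 73.8, 71.7, 68.2 and 67.9 CPM in the K562 libraries against 16.6, 17, 14.7 and 14.6 in those of K/VP.5 (log2 fold change -2.16 with SE 0.14 and adjusted p = 1.7e-08), and OSMR, the oncostatin M receptor, fell from 4.21 ± 1.9 to 0.305 ± 0.082 CPM. IFNLR1, the receptor for λ interferons, rose from 0.704 ± 0.096 to 9.96 ± 1.2 CPM (log2 fold change 3.81 with SE 0.16 and adjusted p = 1.9e-10).

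Ligands seen by cytotoxic cells rose more often than they fell. Of 23 tested of 34 listed, 9 rose and 6 fell. CD276, or B7-H3, an immune checkpoint molecule, was at 7.81, 17, 8.57 and 18.8 CPM in the K562 libraries against 38.2, 47.6, 38.2 and 44.3 in those of K/VP.5, without overlap (log2 fold change 1.69 with SE 0.25 and adjusted p = 1.5e-04), and ULBP2, a stress ligand of the NKG2D receptor, at 2.09, 1.24, 3.07 and 2.25 CPM in the K562 libraries against 8.76, 6.73, 9.82 and 8.69 in those of K/VP.5 (log2 fold change 1.97 with SE 0.27 and adjusted p = 3.4e-05). HLA-C, an antigen-presenting class I gene, stood at 7.83 ± 0.27 CPM in K/VP.5 against 0.101 ± 0.096 CPM in K562, a line known for low class I levels, and HLA-C and HLA-B are alike enough to share reads.

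Genes that build and sulfate surface glycans also changed. Of 79 glycan-building transferases tested of 126 listed, 25 rose and 13 fell. FUT8, the enzyme of core fucose on N-glycans, was at 22.9, 17.3, 20.4 and 14.9 CPM in the K562 libraries against 1.36, 1.06, 1.06 and 0.906 in those of K/VP.5 (log2 fold change -4.10 with SE 0.18 and adjusted p = 2.9e-10), and MGAT4A, which adds a branch to N-glycans, at 0.141, 0.229, 0.307 and 0.282 CPM in the K562 libraries against 19.1, 16, 19.9 and 11.8 in those of K/VP.5 (log2 fold change 6.10 with SE 0.27 and adjusted p = 2.9e-10). The former fell and the latter rose without overlap. CHST3, which sulfates chondroitin, went from 0.0798 ± 0.016 to 7.69 ± 1.7 CPM, and UGT8, which makes galactosylceramide, from 5 reads in K562 to 16.4 ± 3.1 CPM. Of 17 proteoglycan genes tested of 24 listed, 7 rose and 1 fell, against 10 and 4 with replicate numbers as a block, with SDC2, a syndecan, from 1.10 ± 0.33 to 9.31 ± 1.0 CPM.

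Wnt pathway genes rose more often than they fell. Of 30 tested of 50 listed, 14 rose (46.7%), 4 fell and 12 did not pass. LEF1, the DNA-binding partner of β-catenin, was at 0.177, 0.753, 0.171 and 0.724 CPM in the K562 libraries against 30.2, 25.8, 30.3 and 25.3 in those of K/VP.5 (log2 fold change 5.94 with SE 0.28 and adjusted p = 1.9e-09), and FZD3, a Wnt receptor, at 0.106, 0.491, 0.205 and 0.241 CPM in the K562 libraries against 8.02, 7.30, 6.95 and 7.25 in those of K/VP.5 (log2 fold change 4.78 with SE 0.25 and adjusted p = 1.7e-09). Both were low in K562 and higher in every K/VP.5 library. AXIN2 and NOTUM, feedback inhibitors that the pathway itself turns on, rose, AXIN2 from 0.281 ± 0.063 to 1.38 ± 0.11 CPM and NOTUM from 5.86 ± 2.6 to 23.8 ± 3.0 CPM (log2 fold changes 2.28 and 2.03). Of 8 Hedgehog genes tested of 16 listed, 4 rose and 2 fell. SMO, the signal transducer of the pathway, was at 0.177, 0.328, 0.205 and 0.282 CPM in the K562 libraries against 20.7, 24, 22.8 and 25.4 in those of K/VP.5, with no overlap (log2 fold change 6.53 with SE 0.17 and adjusted p = 1.2e-12), and KIF7, a kinesin of the primary cilium, rose from 9.53 ± 0.56 to 34.3 ± 2.8 CPM, while SUFU, an inhibitor on chromosome 10, fell from 27.1 ± 1.9 to 18.3 ± 1.7 CPM. Of 24 Notch genes tested of 28 listed, 9 rose and 6 fell (3 with upper quartile scaling, 2 with no filter and 2 without replicate 4 of K562 or, in K/VP.5, without replicate 1 or 2), with the target HEYL rising from 0.310 ± 0.067 to 3.25 ± 0.62 CPM and the ligand JAG1 falling from 7.65 ± 3.2 to 1.49 ± 0.47 CPM. Of 36 TGF-β and BMP genes tested of 52 listed, 14 rose and 7 fell, with LTBP1, which stores latent TGF-β in the matrix, at 6.68, 8.39, 6.79 and 6.44 CPM in the K562 libraries against 33.5, 34.1, 35.4 and 34.8 in those of K/VP.5 (log2 fold change 2.28 with SE 0.093 and adjusted p = 1.1e-10), and the BMP receptor ACVR1 lower, at 13 ± 2.7 and 2.54 ± 0.40 CPM. Of 18 Hippo genes tested of 22 listed, 8 rose and 1 fell, against 10 and 3 with replicate numbers as a block.

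Genes of pathways downstream of BCR-ABL fell at least as often as they rose. STAT5A, a main transcription factor of BCR-ABL signalling, was at 1105, 1026, 1192 and 923 CPM in the K562 libraries against 591, 557.6, 643 and 562.4 in those of K/VP.5, without overlap (log2 fold change -0.85 with SE 0.079 and adjusted p = 7.3e-07), while CCND2, a cyclin that STAT5 activates, was at 125, 117, 123 and 102 CPM in the K562 libraries against 436, 427, 441 and 397 in those of K/VP.5 (log2 fold change 1.87 with SE 0.088 and adjusted p = 5.1e-10). In this list of 28, 26 genes were tested, 7 rose and 8 fell. CDK6, the kinase partner of cyclin D2, rose with it, at 225, 191, 213 and 162 CPM in the K562 libraries against 471, 445, 502 and 416 in those of K/VP.5 (log2 fold change 1.21 with SE 0.11 and adjusted p = 7.3e-07). CCND1 went the other way, from 7.99 ± 4.6 to 1.32 ± 0.31 CPM. Of 32 RAS and MAP kinase feedback genes tested of 34 listed, 3 rose and 9 fell (6 and 11 with the block), with DUSP10 from 12.8 ± 3.0 to 1.49 ± 0.43 CPM and NF1, the RAS inhibitor neurofibromin, from 187 ± 11.2 to 113 ± 9.8 CPM, while SPRY1 rose from 4 reads in K562 to 4.24 ± 0.50 CPM. Of 31 PI3K and AKT genes tested of 33 listed, 4 rose and 10 fell, 2 and 3 of them at least 2-fold. Against the larger group, PIK3CD, the leukocyte PI3K catalytic subunit, rose from 47.7 ± 1.8 to 110.4 ± 6.6 CPM (log2 fold change 1.21 with SE 0.067 and adjusted p = 2.8e-09).

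Of 22 NF-κB and TNF response genes tested of 30 listed, 6 rose and 7 fell. NFKB1, the p50 subunit, was at 144, 112, 144 and 109 CPM in the K562 libraries against 58.5, 50.8, 59.3 and 48.4 in those of K/VP.5 (log2 fold change -1.23 with SE 0.11 and adjusted p = 4.9e-07), and NFKB2 fell from 59.5 ± 14.3 to 22.9 ± 1.8 CPM. Their nearest genes had medians of -0.62 and -0.68. TNFAIP3, an inhibitor of the pathway, rose from 2.60 ± 0.46 to 13.7 ± 5.2 CPM. Of 23 interferon response genes tested of 37 listed, 7 rose and 7 fell, 2 and 3 of them at least 2-fold. Among those that rose was USP18, which dampens interferon signalling, at 2.24 ± 0.36 and 11.7 ± 1.8 CPM (log2 fold change 2.38).

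Genes of cell death fell more often than they rose, and genes of the cell cycle and of repair moved both ways. Of 31 apoptosis genes tested of 33 listed, 5 rose and 11 fell. CASP9, the initiator caspase of the mitochondrial path, was at 33.3, 46.5, 33.1 and 64.0 CPM in the K562 libraries against 13, 19.3, 16.5 and 17.8 in those of K/VP.5 (log2 fold change -1.41 with SE 0.21 and adjusted p = 1.7e-04), and its activator APAF1 went from 38.5 ± 7.3 to 20.5 ± 3.4 CPM. The survival genes BCL2 and BCL2L1 fell as well, from 32.4 ± 4.2 to 18.1 ± 1.7 CPM and from 106 ± 16.5 to 62.1 ± 7.6 CPM (log2 fold changes -0.84 and -0.77). Of 27 p53 targets tested of 30 listed, 3 rose and 3 fell, against 6 and 3 with replicate numbers as a block. All 62 G1/S and replication genes were tested, and 13 rose and 9 fell, against 20 and 13 with the block. All 53 mitosis genes were tested, and 8 rose and 11 fell, none of the 19 at least 2-fold, with CENPE, a kinetochore motor, from 198 ± 8.6 to 107 ± 5.9 CPM. With the block 14 mitosis genes rose and 14 fell. All 39 homologous recombination and Fanconi genes were tested, with 9 higher and 3 lower. SLX4, a nuclease scaffold, fell from 50.1 ± 3.0 to 22.5 ± 1.6 CPM, and BRCA2 on chromosome 13 rose from 38.6 ± 3.1 to 62.0 ± 3.8 CPM. Of 34 end joining and damage checkpoint genes tested of 35 listed, 6 rose and 9 fell, with the checkpoint kinases WEE1 and ATR at 60.7 ± 4.2 and 48.2 ± 3.2 CPM against 115 ± 5.5 and 88.8 ± 16.2 CPM in K562.

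Detoxification and redox genes fell more often than they rose. Of 48 NRF2, glutathione and detoxification genes tested of 57 listed, 4 rose, 17 fell (35.4%) and 27 did not pass, against 8 and 22 with the block, with a median of -0.18. MGST1, a membrane glutathione transferase, was at 39.6, 36.1, 42.5 and 37.4 CPM in the K562 libraries against 9.01, 10.8, 10.1 and 9.78 in those of K/VP.5 (log2 fold change -1.97 with SE 0.14 and adjusted p = 5.7e-08), without overlap, and at 0.0748 ± 0.060 CPM in edit-3. GSTO1, an omega class transferase on chromosome 10, went from 189.8 ± 34.5 to 71.7 ± 9.1 CPM, and AKR1C3, a ketone reductase with close copies, from 13.6 ± 1.2 to 3.84 ± 0.73 CPM. Of the 17 that fell, 9 had nearest genes with a median of at most -0.3, among them GSTO1 (-0.81) and AKR1C3 (-0.35), but not MGST1 (0.02).

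Among cytosolic ribosomal protein, proteasome and nuclear oxidative phosphorylation genes more fell than rose, and part of those that fell had lower neighbours. Of 83 cytosolic ribosomal protein genes tested of 86 listed, 8 rose and 24 fell, 14 of the 24 with nearest genes at a median of -0.3 or less. RPL23 was at 353, 368, 361 and 379 CPM in the K562 libraries against 215, 211, 199.7 and 218 in those of K/VP.5 (log2 fold change -0.79 with SE 0.061 and adjusted p = 1.1e-07) with a neighbour median of -0.78. Of 45 proteasome genes tested, 3 rose and 11 fell (6 and 15 with the block), 7 of the 11 beside lowered neighbours. Of 66 nuclear genes of oxidative phosphorylation, 6 rose and 18 fell (2 and 10 with no filter), 6 of the 18 beside lowered neighbours. Over all genes that fell, 35.1% had such neighbours. The shares of these lists that fell were 28.9%, 24.4% and 27.3%, against 21.4% of coding genes, so the proteasome share was near it. NDUFS8, a complex I subunit, fell from 87.1 ± 5.5 to 47.6 ± 1.2 CPM, with a neighbour median of -0.63. Of 77 mitochondrial ribosomal protein genes tested of 78 listed, 8 rose and 13 fell (16.9%), against 16 and 21 with the block. Their order was not stable, as 12 rose and 10 fell with upper quartile scaling, and 10 and 8 without K562 replicate 1. The 13 mitochondrially encoded genes did not pass, with a median of 0.25, but 10 of them rose when replicate numbers were kept as a block. Of the 26 hypoxia genes, all tested, none rose and 5 fell, against 2 and 9 with the block, and of 25 snoRNA host genes tested of 29 listed, 1 rose and 3 fell, against 7 and 5 with it.

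**Figure D5:**
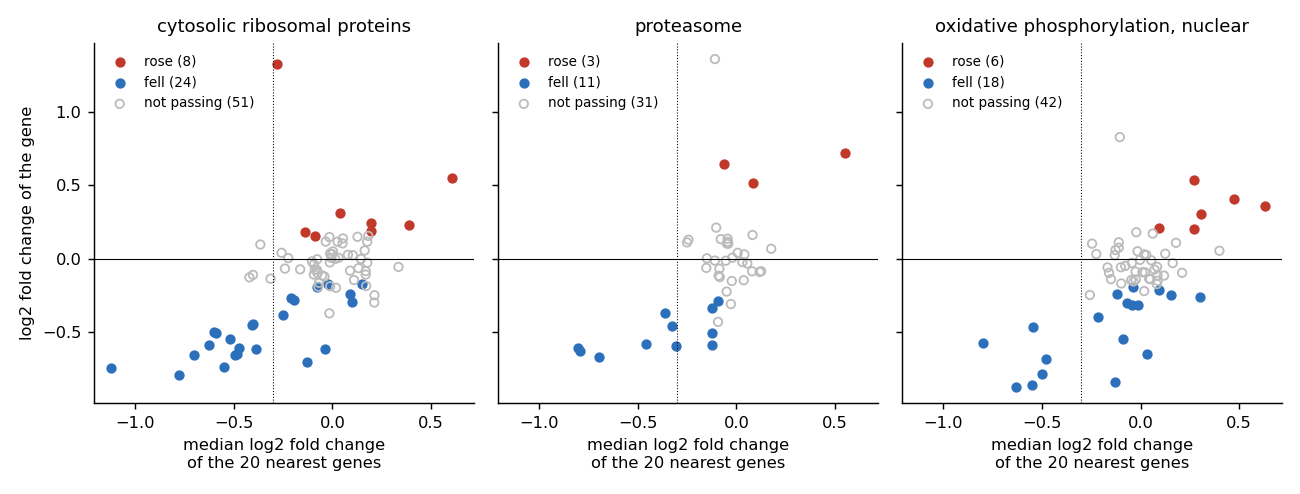
Log2 fold change of each gene (vertical) against the median log2 fold change of its 20 nearest genes tested (horizontal) for ribosomal protein, proteasome and oxidative phosphorylation genes, filled where the gene rose or fell. Of the genes that fell, 14 of 24 ribosomal protein genes (58.3%) and 7 of 11 proteasome genes (63.6%) sit left of -0.3. For oxidative phosphorylation it was 6 of 18 (33.3%), near the 35.1% over all genes that fell.

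Chaperone genes rose more often than they fell, and skeleton and Polycomb genes fell more often than they rose. The share of chaperone genes that rose was 23.5%, near the 20.7% of coding genes. The share that fell was 2.94%, against 21.4% of coding genes, and none changed at least 2-fold. All 34 unfolded protein and heat shock genes were tested, and 8 rose and 1 fell, against 14 and 2 with the block, with HSP90B1, the chaperone GRP94, at 679.9, 672, 628 and 667 CPM in the K562 libraries against 1115, 1082, 1073 and 1122 in those of K/VP.5 (log2 fold change 0.73 with SE 0.056 and adjusted p = 1.0e-07) and HYOU1 from 410.5 ± 22.4 to 564 ± 20.9 CPM. Of 44 cytoskeleton and contractility genes tested of 46 listed, 5 rose and 17 fell (38.6%), against 10 and 23 with the block, with a median of -0.29 and 2 of the 17 beside lowered neighbours. LCP1, or L-plastin, the actin bundler of blood cells, was at 16.5, 26.3, 15.8 and 41.9 CPM in the K562 libraries against 1.79, 2.16, 2.11 and 2.45 in those of K/VP.5 (log2 fold change -3.56 with SE 0.28 and adjusted p = 3.1e-07), while its relative PLS3, or T-plastin, had 2 reads in K562 and was at 4.99, 5.38, 5.13 and 5.14 CPM in K/VP.5, a ratio of 291 (80.2 to 2407). The plastins moved in opposite directions, each without overlap. All 33 Polycomb genes were tested, 3 rose and 11 fell (5 and 12 with the block), with SUZ12, a core subunit of the complex that methylates histone H3, from 129 ± 9.4 to 78.4 ± 2.3 CPM. The 20 DNA methylation genes were all tested, and 2 rose and 4 fell, against 2 and 9 with the block. DNMT3A, a de novo DNA methyltransferase, rose from 72.9 ± 7.2 to 128 ± 8.4 CPM (log2 fold change 0.82 with SE 0.092 and adjusted p = 5.6e-06), and the methyl-DNA binders MBD1 and ZBTB38 fell, with log2 fold changes of -1.53 and -2.48.

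Imprinted genes, expressed from 1 parental copy, rose more often than they fell, with 12 higher and 7 lower of 31 tested of 45 listed. The noncoding RNA H19 was at 62.3, 119, 65.4 and 191 CPM in the K562 libraries against 1235, 1357, 1358 and 1636 in those of K/VP.5, without overlap (log2 fold change 3.67 with SE 0.35 and adjusted p = 9.4e-06). PEG10, derived from a retroelement, rose from 0.0636 ± 0.056 to 9.42 ± 1.2 CPM, and PLAGL1, a growth-restraining factor, fell from 37.8 ± 5.7 to 7.57 ± 0.87 CPM (log2 fold change -2.32 with SE 0.11 and adjusted p = 7.6e-10).

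In the large noncoding classes a smaller share of genes changed than the 42.1% of coding genes, but their levels were far lower. The median level was 27.8 CPM over the coding genes tested. It was 0.986 CPM for long intergenic RNA genes, 0.796 CPM for antisense genes and 0.834 CPM for processed pseudogenes. A change is harder to call at few reads. At least 2-fold, 1153 of the 12911 coding genes rose and 676 fell, a smaller share than in the long intergenic class. Of 956 long intergenic noncoding RNA genes tested of 7484 listed, 185 rose (19.4%) and 131 fell (13.7%), 107 and 86 of them at least 2-fold, and 12 were on in K/VP.5 alone and 8 in K562 alone. LINC01606, without a read in K562, stood at 6.83, 5.31, 6.04 and 6.64 CPM in K/VP.5, at least 236-fold higher, and LINC02377 was at least 40.4-fold higher on the same floor. MIR548XHG, a microRNA host gene, was at 0.0354, 0.0328, 0.0341 and 0.0805 CPM in the K562 libraries against 5.02, 4.43, 5.02 and 5.86 in those of K/VP.5 (log2 fold change 6.71 with SE 0.27 and adjusted p = 1.2e-10). Its ranges did not overlap, and the 4 K562 libraries held 5 reads in all. Among long noncoding RNAs of known role, 6 of 25 rose and 2 fell, against 11 and 5 with the block. PVT1, a noncoding gene of 8q24, went from 27.1 ± 3.4 to 10.3 ± 0.65 CPM and KCNQ1OT1, an imprinted antisense RNA, from 26 ± 3.1 to 41 ± 6.3 CPM. MIR193BHG, which hosts miR-193b, rose from 4.09 ± 0.67 to 11.1 ± 0.90 CPM.

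Of 1348 antisense genes tested of 5497 listed, 167 rose and 145 fell. Their reads cannot be separated from those of the overlapping gene without a stated strand setting, so AC016723.1 and TMEM132D-AS1, which fell from 19.5 ± 1.7 to 0.223 ± 0.088 CPM and from 41.1 ± 4.0 to 1.51 ± 0.32 CPM, are uncertain. Of 1251 processed pseudogenes tested of 10214 listed, 95 rose and 96 fell, or 15.3% in all. DUX4L27, a copy of the DUX4 family, was at 0.106, 0.131, 0.0683 and 0.0402 CPM in the K562 libraries against 24.1, 24.3, 29.9 and 21.4 in those of K/VP.5 (log2 fold change 8.07 with SE 0.20 and adjusted p = 9.0e-13), and the transcribed pseudogene PPIAP46 at 0.177, 0.360, 0.376 and 0.201 CPM in the K562 libraries against 26.5, 24.7, 26.7 and 26.9 in those of K/VP.5 (log2 fold change 6.52 with SE 0.17 and adjusted p = 1.3e-12). Both were higher in every K/VP.5 library, and reads may come from their relatives. Of 242 unprocessed pseudogenes tested of 2662 listed, 41 rose and 25 fell, with CENPIP1 and PSPHP1 at 0 reads in K562 and at least 165-fold and 106-fold higher in K/VP.5. PTPRVP, a pseudogene of a receptor phosphatase next to PTPN7, fell from 32.7 ± 10.1 to 0.963 ± 0.60 CPM, as PTPN7 did.

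Few small RNA genes had enough reads to be tested. Of 63 microRNA genes tested of 1879 listed, 6 rose and 8 fell, of 85 snoRNA genes of 943 listed, 2 rose and 7 fell (4 and 12 with the block), and of 52 small nuclear RNA genes of 1909 listed, 5 rose and 8 fell (5 and 13 with the block). SNORA23 fell from 2.63 ± 0.69 to 0.925 ± 0.20 CPM and MIR4482 from 2.45 ± 0.45 to 0.862 ± 0.27 CPM, and the neighbours of both were lower too, at medians of -0.58 and -0.81. Small RNA genes mostly lie within other genes, so their reads may be shared with the host.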

How the data were processed

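A single table of whole-number counts of reads for each gene was deposited for the 12 libraries, with gene identifiers, symbols and biotypes. The submitters' processing notes name HISAT2 2.1.0, Subread 1.5.1, featureCounts and GRCh38. Strand setting and library kit were not given in the sources used here, beyond a standard Illumina protocol.

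Counts were tested in edgeR 4.0.16 (limma 3.58.1, R 4.3.3), with TMM library sizes, the filterByExpr filter by line, a robust quasi-likelihood fit over all 12 libraries and the contrast of K/VP.5 minus K562. P-values were adjusted by Benjamini and Hochberg over the 18286 genes tested, and the SE is the size of the log2 fold change over the square root of F. The fit was tested on simulated counts. Library totals ran from 25311993 to 37065946 reads, 95.5% to 96.2% of them in coding genes, and the genes tested held 99.9% of reads. No pair of libraries within a line had counts that agreed within sampling noise. Intervals of ratios for genes with 1 to 3 reads in a line are exact 95% intervals and cover counting error only. A fold against a line with 0 reads is a lower bound computed with 3 reads over its 4 libraries.

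The libraries of the lines share replicate numbers. For each number, deviations of the K562 and the K/VP.5 library from their line means correlated at 0.31, 0.15, 0.14 and 0.51. The labels do not say that a number marks a shared culture. The main fit therefore held no replicate term, and the number entered as a block only in an alternative fit. Correlations between different numbers ran from -0.40 to 0.29, and K562 replicate 3 correlated more with K/VP.5 replicate 1 than with its own number. The value with the number as a block is given where it changed the call of a named gene, or by over 1.5 times a count printed here.

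Gene positions came from GENCODE 29 (GRCh38) and promoter windows from RefSeq (GRCh38.p14), matched by symbol. Nearest genes are the 20 nearest genes tested, without the gene itself, and they may belong to the same list. The 99 gene lists hold 2053 symbols, of which 8 found no row. Genes and lists were chosen with earlier results of these data known. Named are up to 6 changed genes per list or noncoding biotype with at least 1 CPM in the higher line and the largest changes, abundant coding genes among the 15 largest rises and falls over 50 CPM, and surface genes on in 1 line, and some genes that meet this rule are not reported here. Members of the 3 blocks, ABCC1, TAL1, HBG2, HBE1 and ABCB1 were named after their values were seen, and the threshold of 0.3 for nearest genes was chosen then too. Alternatives were other scalings and filters, DESeq2 1.42.0, the 8 libraries alone, the block, and leaving out each library.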

Additional observations from a re-analysis of the deposited data

Results flagged for a closer look

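Among the genes named in the report, 1 library stood apart from the other 3 of its line in 30 of 478 sets of 4 values by Dixon's criterion at the 95% level, which sets its gap to the nearest other library against the range of the 4. Chance flags about 1 in 20 such sets. All values here are CPM. Replicate 1 of K/VP.5 was the highest of its line for ADGRA3 (0.0567, the others at 0), CENPE (116, the others at 103 to 105) and OR52D1 (0.0567, the others at 0). The highest K/VP.5 value came from replicate 2 for DAB2IP (60.3, the others at 50.2 to 50.4) and PSPHP1 (3.58, the others at 2.56 to 2.66). In K/VP.5, replicate 3 stood above the others for IGSF11 (0.0364, the others at 0), IGSF3 (60.9, the others at 52 to 52.7), TNFAIP3 (21.4, the others at 10.3 to 11.7) and ZFP14 (3.82, the others at 2.80 to 2.90). Replicate 4 of K/VP.5 was the highest of its line for ENPP3 (0.187, the others at 0.0567 to 0.0728), ITGB5 (6.10, the others at 4.29 to 4.50), ITPR1 (38.7, the others at 27.7 to 29.5) and OSMR (0.426, the others at 0.255 to 0.283). The highest K/VP.5 value came from replicate 4 for PTPRVP (1.87, the others at 0.624 to 0.691), PVT1 (11.2, the others at 9.92 to 10.01) and SLC37A1 (8.45, the others at 6.59 to 6.88). In K/VP.5, replicate 2 stood below the others for HOXD8 (1.49, the others at 1.86 to 1.93), P2RY1 (5.49, the others at 6.22 to 6.37) and PPIAP46 (24.7, the others at 26.5 to 26.9). Replicate 4 of K/VP.5 was the lowest of its line for ABCG2 (2.69, the others at 4.14 to 4.26) and GYPE (58.8, the others at 78.0 to 81.1). The highest K562 value came from replicate 1 for NF1 (204, the others at 181 to 182). In K562, replicate 2 stood above the others for TFAP2B (0.0328, the others at 0) and ZNF850 (0.0655, the others at 0). Replicate 4 of K562 was the highest of its line for MIR548XHG (0.0805, the others at 0.0328 to 0.0354). The lowest K562 value came from replicate 1 for LMO2 (180.1, the others at 218 to 223) and ROBO1 (0.141, the others at 0.402 to 0.444). In K562, replicate 3 stood below the others for CD36 (0.239, the others at 0.318 to 0.328). Replicate 4 of K562 was the lowest of its line for CLCN4 (0, the others at 0.0328 to 0.0354) and XK (7.69, the others at 10.8 to 11.2). None of these values brought the ranges of the lines to overlap.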

How the results depend on the processing

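All 7 counts that sum up the comparison stayed within 1.5 times of their value under every alternative run. The number of genes changed was 6697 with DESeq2 size factors, 6747 with upper quartile scaling, 6706 with no filter, 6099 with a stricter filter, 6897 with DESeq2 in place of edgeR, 6822 on the 8 libraries alone and 8690 on the 8 libraries with the replicate number as a block. Leaving out 1 library gave 5839 to 6561. The share of calls that were higher in K/VP.5 ran from 48.1% to 55.4%, and no scaling moved the median gene by more than 0.038 on the log2 scale. At an unadjusted p under 0.05, 8129 genes passed. Of the 239 genes named in the text that were tested, the call changed for TAL1 alone over 15 alternatives, as it rose under the block, and no named gene changed direction. The block changed no other call of a named gene. Of 212 counts of genes higher or lower in a list or noncoding class, 56 moved by over 1.5 times with the block. The report gives both values where it prints such a count, but some lists appear through named genes alone. The other alternatives moved 0 with DESeq2 size factors, 9 with upper quartile scaling, 18 with no filter, 20 with the stricter filter, 10 with DESeq2, 9 on the 8 libraries alone and 11 to 24 without 1 library, many of them by 1 or 2 genes. Larger moves include 17 in place of 10 potassium channel genes higher with no filter, 13 in place of 8 cytosolic ribosomal protein genes higher with upper quartile scaling (4 without K/VP.5 replicate 2 or 4), 3 in place of 7 immunoglobulin superfamily genes lower with the stricter filter, 5 in place of 9 potassium channel genes lower without replicate 4 of K562 or, in K/VP.5, without replicate 1, 6 in place of 3 p53 targets higher without K562 replicate 4, and 2 in place of 5 apoptosis genes higher without replicate 1 of K562 or, in K/VP.5, without replicate 4. Over all alternatives 2 to 10 microRNA genes and 2 to 13 small nuclear RNA genes were lower. Where the report says that a list rose or fell more often, no alternative reversed the order. A fold printed for a gene at 1 to 3 reads in a line rests on those reads. Depth limits genes under 0.1 CPM most, which had few reads over the 4 libraries of a line.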
